A study of Homo sapiens with 6 samples.

Results

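The 10 genes described here encode Notch receptors (NOTCH1, NOTCH2, NOTCH3), their ligands (JAG1, JAG2, DLL1) and HES and HEY repressors (HES1, HES2, HES4, HEY1). They were chosen by gene symbol from the 60591 genes of the deposited count table, and all 10 were present. KYSE150 is an established human line from an oesophageal squamous cell carcinoma, and both groups were made from it. The TPA group (3 libraries) was starved of serum overnight and then kept with the phorbol ester TPA, an activator of protein kinase C, at 10 ng/ml for 24 h. The control group (3 libraries) is labelled DMSO, the usual solvent of TPA, and is taken here as serum-starved too. The labels state no dose or time for it. The series compared these groups by RNA sequencing of total RNA, and the question here is which Notch genes differed between them. Nothing in the labels tells whether the 3 libraries of a group are 3 cultures or 3 preparations of 1 culture. The p-values therefore describe the spread among these 6 libraries alone, which may be technical.

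Notch receptors sit in the plasma membrane and bind ligands of the Jagged and Delta-like families on neighbouring cells. Binding lets an ADAM protease and then gamma-secretase cut the receptor, and its freed intracellular part joins the DNA-binding protein RBPJ and a Mastermind coactivator to switch on genes such as HES1 and HEY1. In squamous epithelium, NOTCH1 is known for promoting the exit of basal cells into differentiation, and NOTCH1 is often mutated in oesophageal squamous carcinoma.

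Libraries numbered 1 stood apart from those numbered 2 and 3 in both groups. Across tested genes, TPA 1 had a higher correlation of log2 CPM (read counts scaled to a common library size, here with TMM factors) with DMSO 1 (r = 0.973) than with TPA 2 (0.925) or TPA 3 (0.935). DMSO 2 with DMSO 3 (0.992) and TPA 2 with TPA 3 (0.991) were the closest. Library totals ran from 27702329 to 33965547 counts. The summed level of 10 squamous epithelial marker genes was 1685 CPM in DMSO 1 against 3358 and 3237 in DMSO 2 and 3, and 1283 CPM in TPA 1 against 2298 and 2346 in TPA 2 and 3. Of the 10, 8 were above 1 CPM in every library, which leaves out KRT6A and SOX2. KRT5, the basal keratin gene of that list, had 428, 1734 and 1777 CPM in DMSO 1, 2 and 3 and 66.6, 490 and 508 CPM in TPA 1, 2 and 3, and it carried much of that sum. The other 9 summed to 1257, 1625 and 1460 CPM in DMSO and to 1217, 1808 and 1838 CPM in TPA, lower in pair 1 and higher in pairs 2 and 3. Of the 10, 6 were lower in TPA in all 3 pairs and 3 (KRT6A, CDH1 and EPCAM) higher in all 3. Fibroblast markers summed to 3.04 to 12.2 CPM (6 of 7 below 1 CPM throughout, with DCN at 0), leukocyte markers to 1.27 to 4.02 CPM (4 of 5 below 1 CPM) and endothelial markers to 0.977 to 2.92 CPM (2 of 4 below 1 CPM, with KDR at 0). Each member is therefore given for each pair, meaning the TPA and DMSO libraries of the same number, and with and without the libraries numbered 1.

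No member passed in the comparison of 3 with 3 libraries (adjusted p under 0.05 in the quasi-likelihood test of edgeR, Benjamini-Hochberg over 21825 genes). By this rule 1.26% of all tested genes were called. At an unadjusted p under 0.05 there were 2 of the 10, NOTCH2 and HES1, near the 22.1% of all tested genes at that threshold. With DESeq2 or limma-voom 0 members passed, beside 2617 and 377 of all 21825 genes. The fits described from here on are edgeR's unless another tool is named. The replicate number as a block, which compares libraries within pairs, called NOTCH3 lower, beside 11.1% of all genes called. The block with a correction for transcript GC content called NOTCH3, JAG1 and JAG2 lower, beside 20.0% of all genes. Without the libraries numbered 1, 6 members were higher and 3 lower, with DLL1 the exception, beside 65.5% of all genes called from 2 close libraries against 2. Without TPA 1 alone, 5 members were higher and 0 lower, beside 11874 of all 22633 genes tested in that fit.

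The members divided by direction. JAG1, JAG2 and NOTCH3 were lower in TPA in all 3 pairs (3 of 10, against 29.6% of all tested genes lower in all pairs). NOTCH2 and HES1 were higher in all 3 pairs (2 of 10, against 22.7% of all genes). The same 2 were the members whose groups did not overlap, both with TPA above DMSO (14.3% of all genes), and no member lay wholly below (15.2% of all genes). The other 5 members went both ways. The members' median log2 fold change was 0.42 in the comparison without the block, where all genes had -0.11, and -0.01 with the block and GC correction, where all genes had -0.15. Fold changes without the block are thus relative to TMM scaling, where the median of all genes was -0.11. Scaling by library size alone moved that median to -0.36, and DESeq2's median-ratio factors moved it to -0.01.

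**Figure D1:**
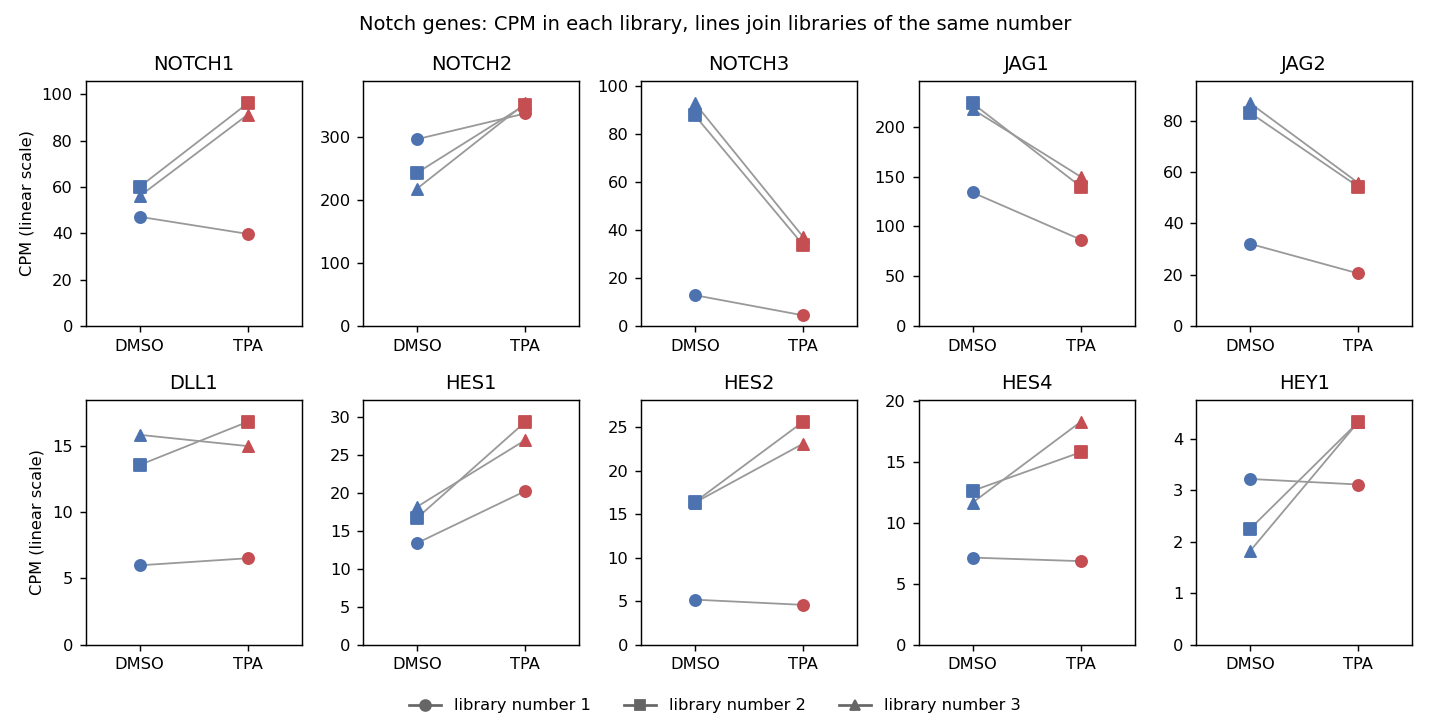
CPM (linear axes from 0) of each Notch gene in the 6 libraries. Blue points are DMSO and red points TPA, marker shapes give the library number, and grey lines join the libraries of a pair. NOTCH3 drops along all 3 lines, from 12.8 to 4.45 CPM in pair 1 and from 92.8 to 37.2 CPM in pair 3, while library number separates its points more widely than treatment does.

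NOTCH3 (chromosome 19, 15159038 to 15200981), a receptor gene, had 12.8, 87.8 and 92.8 CPM in DMSO 1, 2 and 3. It had 4.45, 33.8 and 37.2 CPM in TPA 1, 2 and 3. Each TPA library lay below the DMSO library of its number, but the groups overlapped because DMSO 1 lay below TPA 2 and 3. Libraries 2 and 3 averaged 7.03 times library 1 in DMSO and 7.98 times in TPA, a gap wider than that between the treatments. Within pairs 1, 2 and 3 NOTCH3 differed by -1.52, -1.37 and -1.32 log2 units. Across groups NOTCH3 went from 64.5 ± 44.8 to 25.2 ± 18.02 CPM (SD, n = 3 each). This log2 difference of -1.36 ± 0.89 (SE) did not pass (adjusted p = 0.405). With the replicate block NOTCH3 fell (-1.40 ± 0.24, adjusted p = 0.00681). The block with GC correction gave -1.78 ± 0.14 (0.00289) and the fit without libraries 1 gave -1.19 ± 0.09 (1.59e-08). Without TPA 1 alone it was -0.75 (0.386), and without DMSO 1 alone -1.84 (0.287). Over 16 alternatives its adjusted p ran from 1.59e-08 to 0.686, with 3 passing and 16 negative. KRT5, lower in both libraries numbered 1 and in TPA in all 3 pairs, had a like order. Of the 10 squamous markers, KRT5 included, 6 were lower in TPA in all 3 pairs and 3, CDH1 among them, were higher. Their part in the NOTCH3 values was not tested. In bulk RNA, fewer cells of a type and less RNA per cell cannot be told apart.

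NOTCH2 (chromosome 1, 119911553 to 120069626) was the receptor gene with the highest level. Its values were 297, 244 and 219 CPM in DMSO 1, 2 and 3, and 338, 352 and 354 CPM in TPA 1, 2 and 3. All TPA libraries lay above all DMSO libraries, and they lay close together. The means were 253 ± 40.1 and 348 ± 8.70 CPM, a log2 fold change of 0.46 ± 0.20 (unadjusted p = 0.0495, adjusted p = 0.225), with 0.19, 0.53 and 0.70 in pairs 1, 2 and 3. It did not pass with the block, and passed without TPA 1 (0.59, adjusted p = 0.0108) and without both libraries numbered 1 (0.76 ± 0.08, 4.25e-07). Over the 16 alternatives its adjusted p ran from 4.25e-07 to 0.561, and all 16 values were positive. NOTCH2 has near-identical partial copies, so its level is uncertain. The copies NOTCH2NLA, NOTCH2NLB and NOTCH2NLC had means of 0.469 to 2.74 CPM in DMSO and 0.956 to 1.91 CPM in TPA.

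NOTCH1 (chromosome 9, 136494433 to 136545786), the receptor gene tied to squamous differentiation, had 47.2, 60.1 and 56.1 CPM in DMSO 1, 2 and 3. In TPA it had 39.8, 96.2 and 91.3 CPM. TPA 2 and 3 were above every DMSO library and TPA 1 was below every one. The pair values were -0.25, 0.68 and 0.70, and the log2 fold change was 0.48 ± 0.35 (adjusted p = 0.456). NOTCH1 passed without TPA 1 (0.89, adjusted p = 0.00157) and without both libraries numbered 1 (0.84 ± 0.09, 2.85e-07), while the block with GC correction gave 0.03 ± 0.11 (0.861). Its adjusted p over the 16 alternatives ran from 2.85e-07 to 0.881. The 3 receptor genes thus differed in which libraries set their values: NOTCH3 was lower in every pair, NOTCH2 was higher in every pair, and NOTCH1 was higher in pairs 2 and 3 alone.

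JAG1 (chromosome 20, 10637684 to 10673999) and JAG2 (chromosome 14, 105140981 to 105168824) encode the Jagged ligands and were lower in TPA by nearly the same factor. JAG1 had 134, 224 and 218 CPM in DMSO 1, 2 and 3, and 86.7, 140 and 150 CPM in TPA 1, 2 and 3. JAG2 had 32.0, 83.1 and 86.8 CPM in DMSO and 20.5, 54.3 and 55.7 CPM in TPA, in the same order. For both genes the TPA library was lower in every pair, and the groups overlapped through DMSO 1. JAG1 had log2 differences of -0.63, -0.68 and -0.54 in pairs 1, 2 and 3. JAG2 had -0.64, -0.61 and -0.64, the narrowest spread among the 10 genes.

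With all 6 libraries, neither Jagged gene passed without the block. JAG1 went from 192 ± 50.1 to 125 ± 33.9 CPM (log2 -0.61 ± 0.30, adjusted p = 0.284) and JAG2 from 67.3 ± 30.6 to 43.5 ± 19.9 CPM (-0.63 ± 0.49, 0.483). They did not pass with the block either (0.0961 and 0.0885). With the block and GC correction JAG1 fell (-0.84 ± 0.10, adjusted p = 0.00875) and so did JAG2 (-0.98 ± 0.15, 0.0141). Without both libraries numbered 1 they had -0.45 ± 0.08 (adjusted p = 0.000116) and -0.47 ± 0.09 (0.000146). Without TPA 1 alone JAG1 had -0.29 (adjusted p = 0.289) and JAG2 -0.18 (0.709). For JAG2 the value was also -0.96 without DMSO 1 and -0.39 without DMSO 3. Adjusted p over the 16 alternatives ran from 0.000116 to 0.636 for JAG1 and from 0.000146 to 0.776 for JAG2, with all values negative. The antisense gene AL050403.2 shares 79 exonic bases with JAG1 and had 0.717 ± 0.287 CPM in DMSO. No strand setting is stated, so reads of JAG1 and AL050403.2 there cannot be told apart. AL512356.1 shares 469 exonic bases with JAG2 on the same strand, so strand would not separate them, and it had 0 to 2 counts in each library.

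DLL1 (chromosome 6, 170282206 to 170306565), a Delta-like ligand gene, showed no common direction. It had 5.98, 13.6 and 15.8 CPM in DMSO 1, 2 and 3, and 6.52, 16.8 and 14.98 CPM in TPA 1, 2 and 3. Library number separated the values and treatment did not: libraries 2 and 3 averaged 2.46 times library 1 in DMSO and 2.44 times in TPA. The pair values were 0.12, 0.31 and -0.08, and the log2 fold change was 0.11 ± 0.46 (adjusted p = 0.902). Without both libraries numbered 1 it was 0.27 ± 0.12 (adjusted p = 0.0658). Its sign turned under library-size scaling (-0.16) and with the block and GC correction (-0.27 ± 0.17).

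**Figure D2:**
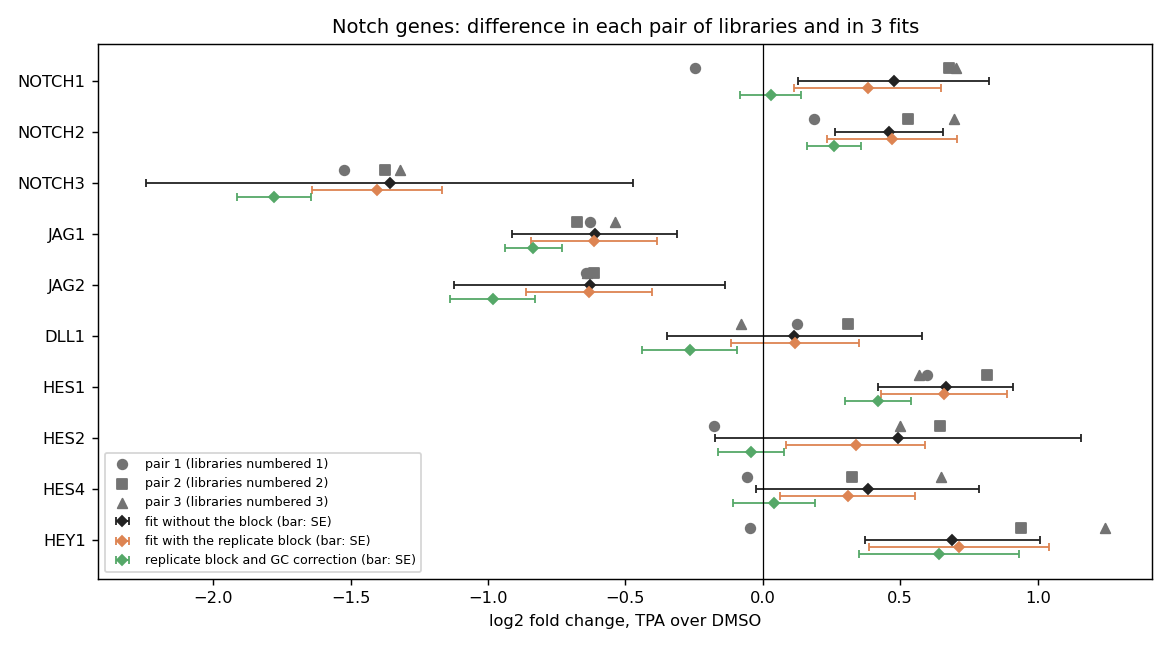
Log2 fold change of TPA over DMSO for each Notch gene. Grey markers are the differences within pairs 1, 2 and 3, and diamonds are the fitted values without the block (black), with the block (orange) and with the block and GC correction (green), with bars of 1 SE. For JAG2 the pair values (-0.64, -0.61 and -0.64) lie together while the black bar (SE 0.49) is wide, and the green values lie left of the orange ones.

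HES1 (chromosome 3, 194136145 to 194138732), the classic direct target of Notch and a basic helix-loop-helix repressor gene, had 13.4, 16.7 and 18.2 CPM in DMSO 1, 2 and 3. In TPA 1, 2 and 3 it had 20.3, 29.4 and 27.0 CPM. Every TPA library was above every DMSO library. The HES1 means were 16.1 ± 2.46 and 25.6 ± 4.74 CPM, a log2 fold change of 0.66 ± 0.25 (unadjusted p = 0.0286, adjusted p = 0.176), with 0.60, 0.81 and 0.57 in pairs 1, 2 and 3. It did not pass with the block (0.66 ± 0.23, adjusted p = 0.0809) or with the block and GC correction (0.42 ± 0.12, 0.0593). It passed without TPA 1 (0.92, adjusted p = 0.00339) and without both libraries numbered 1 (0.84 ± 0.11, 3.84e-06). The adjusted p over the 16 alternatives ran from 3.84e-06 to 0.48, and all values were positive.

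HES4 (chromosome 1, 998962 to 1000172), a close relative of HES1, had 7.13, 12.6 and 11.6 CPM in DMSO 1, 2 and 3. It had 6.84, 15.8 and 18.3 CPM in TPA. TPA 1 was the lowest library and the groups overlapped. The pair values were -0.06, 0.32 and 0.65, and the log2 fold change was 0.38 ± 0.41 (adjusted p = 0.610). HES4 passed without TPA 1 (0.81, adjusted p = 0.0269) and without both libraries numbered 1 (0.64 ± 0.12, 0.000201), and had 0.04 ± 0.15 with the block and GC correction. Its adjusted p ran from 0.000201 to 0.937 over the 16 alternatives.

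HES1 and HES4 are set side by side because their promoters share an arrangement that RBPJ is known to bind at HES1, a pair of sites facing each other. Promoters are the 250 bases before the gene start in RefSeq on GRCh38.p14, where 8 of the 10 members matched by symbol. The letters GTGGGAA, searched on both strands, were found in 5.43% of 35116 promoters and, among these 8, in HES1 and HES4. The wider form GTGNGAA, which includes the first, was found in 11.6% of promoters, and in both genes it occurred once on each strand, with 23 bases from the start of the first match to the start of the second. The first match began 85 bases before the start of HES1 and 77 bases before that of HES4. Capitals mark the matches in the sequences, which lie at chr3:194136063-194136092 (plus strand) and chr1:1000145-1000174 (minus strand).
HES1: GTGGGAAagaaagtttgggaagtTTCACAC
HES4: GTGGGAAagaatgcggagccgggTTCACAC
These 30 bases were identical at 21 positions, matches included. Facing matches at that distance were found in 3 promoters, those of HES1, HES4 and ITIH4 (0.00854%). The distance was read from HES1 and the search was chosen after expression values were seen. The TPA-responsive AP-1 letters TGANTCA, on both strands, were in 6.57% of promoters and in 0 of the 8. A match is a description of letters, not evidence of binding.

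HES2 (chromosome 1, 6412418 to 6424670), another HES repressor gene, had 5.16, 16.4 and 16.3 CPM in DMSO 1, 2 and 3, and 4.56, 25.6 and 23.1 CPM in TPA 1, 2 and 3. Libraries numbered 1 were the lowest of both groups, by factors of 3.17 in DMSO and 5.34 in TPA. The pair values were -0.18, 0.64 and 0.50, and the log2 fold change was 0.49 ± 0.67 (adjusted p = 0.691). It was 0.73 ± 0.11 without both libraries numbered 1 (adjusted p = 1.94e-05, in a range of 1.94e-05 to 0.99 over the 16 alternatives) and -0.04 ± 0.12 with the block and GC correction.

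HEY1 (chromosome 8, 79764010 to 79767863), a HES-related repressor gene that Notch is known to induce, had 3.22, 2.25 and 1.82 CPM in DMSO 1, 2 and 3. In TPA it had 3.11, 4.33 and 4.33 CPM. Pair 1 showed almost no difference (-0.05), against 0.94 and 1.24 in pairs 2 and 3. The log2 fold change was 0.69 ± 0.32 (adjusted p = 0.255), and 0.64 ± 0.29 with the block and GC correction. HEY1 passed without TPA 1 (0.94, adjusted p = 0.0202) and without both libraries numbered 1 (1.24 ± 0.20, 4.16e-05), within a range of 4.16e-05 to 0.581 over the 16 alternatives. It rests on 228 counts in DMSO and 348 in TPA, the fewest of the 10 genes.

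The GC content of the longest transcript ran from 47.3% for HEY1 to 73.9% for HES4. Correcting for it lowered the blocked log2 fold change of every member, by 0.07 for HEY1, 0.21 for NOTCH2, 0.22 for JAG1, 0.24 for HES1 and 0.27 for HES4, and by 0.35 for NOTCH1 and JAG2, 0.37 for NOTCH3 and 0.38 for DLL1 and HES2. The direction of NOTCH3, JAG1, JAG2, NOTCH1, NOTCH2, HES1, HES4 and HEY1 was the same with and without it, while DLL1 and HES2 turned. For NOTCH1 and HES4 the blocked value went from 0.38 to 0.03 and from 0.31 to 0.04.

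Ratios of 2 genes within a library do not depend on library scaling. They were not corrected for transcript GC content. That was 49.6% for JAG1, 64.0% for JAG2 and 58.3% for DLL1, and 62.9%, 49.4% and 63.1% for NOTCH1, NOTCH2 and NOTCH3. The JAG1:JAG2 ratio of counts was 4.19, 2.69 and 2.51 in DMSO 1, 2 and 3, and 4.23, 2.58 and 2.69 in TPA 1, 2 and 3. It followed library number, and its mean log2 difference between groups was 0.02 (pairs 0.02, -0.06 and 0.10, two-sided exact permutation p = 0.80). The JAG1:DLL1 ratio was 22.3, 16.5 and 13.7 in DMSO and 13.3, 8.31 and 9.99 in TPA. Every TPA library was below every DMSO library, by a mean of -0.73 on the log2 scale (exact permutation p = 0.10, the smallest that 3 against 3 allows, and 0.50 adjusted over the 5 ratios tested). The NOTCH3:NOTCH2 ratio was 0.0433, 0.360 and 0.425 in DMSO and 0.0132, 0.0963 and 0.105 in TPA. It was lower in each pair by -1.71, -1.90 and -2.01 log2 units, although the groups overlapped through DMSO 1 (mean difference -1.88, exact permutation p = 0.30, adjusted 0.75). The mean was -0.90 without TPA 1, -2.93 without DMSO 1 and -1.96 without both. The NOTCH1:NOTCH2 ratio (-0.09 log2 units, exact permutation p = 1.0) and the HES1:HEY1 ratio (-0.05, exact permutation p = 0.90) went both ways over the pairs.

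**Figure D3:**
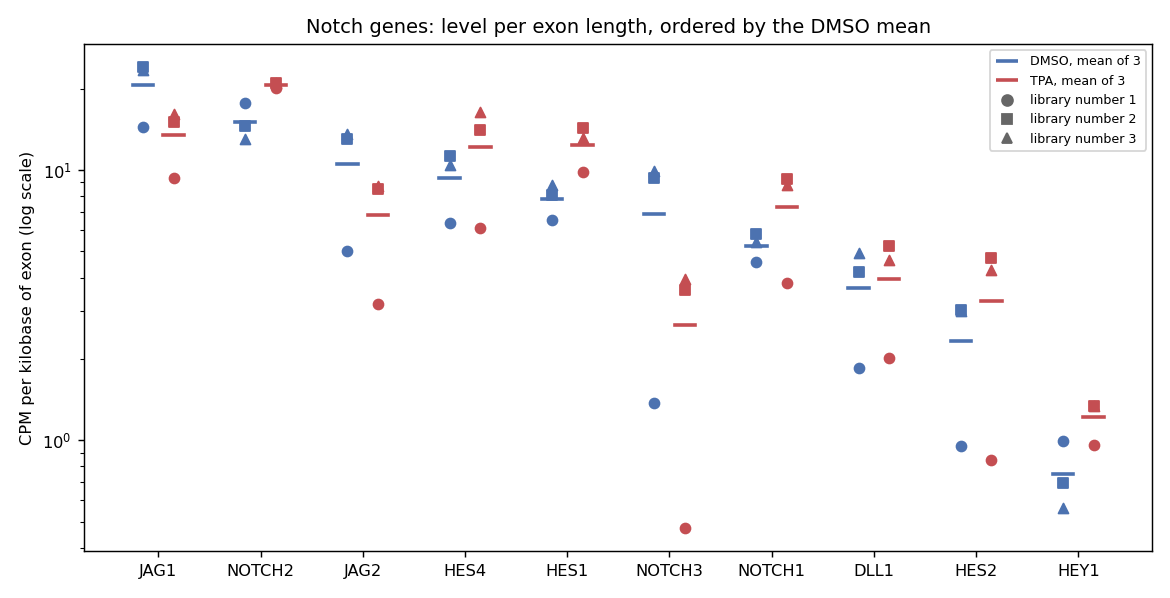
CPM per kilobase of exon (log axis) for each Notch gene, ordered by the DMSO mean. Blue is DMSO and red is TPA, bars are means of 3 libraries and marker shapes give the library number. JAG1 leads in DMSO at 20.6 and NOTCH2 leads in TPA at 20.7, and HEY1 is lowest in both groups.

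Levels were compared between genes as CPM per kilobase of exon (all exons of a gene merged, GENCODE 29). In DMSO the order by mean was JAG1 (20.6 ± 5.38, SD, n = 3), NOTCH2 (15.1 ± 2.39), JAG2 (10.5 ± 4.79), HES4 (9.36 ± 2.62), HES1 (7.81 ± 1.19), NOTCH3 (6.86 ± 4.77), NOTCH1 (5.25 ± 0.64), DLL1 (3.66 ± 1.60), HES2 (2.33 ± 1.20) and HEY1 (0.752 ± 0.222). The ranges of every neighbouring pair in this order overlapped. In TPA, NOTCH2 (20.7 ± 0.52) lay above JAG1 (13.5 ± 3.65) with no overlap of their ranges. HES1 (12.4 ± 2.30), HES4 (12.2 ± 5.38), NOTCH1 (7.30 ± 3.01), JAG2 (6.80 ± 3.12), DLL1 (3.96 ± 1.70), HES2 (3.28 ± 2.13), NOTCH3 (2.68 ± 1.92) and HEY1 (1.21 ± 0.22) followed, each overlapping its neighbour. By mean level per kilobase, NOTCH3 went from the 6th place in DMSO to the 9th in TPA.

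Among other genes of the Notch pathway, the ligand gene DLL4 alone passed in the edgeR comparison without the block. Of the 62 genes in this list, 55 passed the filter on low counts. Of these 1 was higher, 0 were lower and 54 did not pass, with a median log2 fold change of 0.13 (all genes -0.11), and 15 had an unadjusted p under 0.05, beside the 22.1% of all genes. By that rule 1.26% of all tested genes were called. DESeq2, without a block, called 7 of the 55 higher and 1 lower, beside 2617 of all 21825 genes called. Its calls included DLL4, FURIN, HES7, DTX4 and MAML2. Limma-voom called DLL4, beside 377 of all 21825 genes. With the block 4 were higher and 3 lower, a share of 7 in 55 beside the 11.1% of all genes.

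DLL4 (chromosome 15, 40929333 to 40939073), a Delta-like ligand best known from blood vessel growth, had 0.36, 0.09 and 0.26 CPM in DMSO 1, 2 and 3. It had 2.50, 3.59 and 3.19 CPM in TPA 1, 2 and 3. The TPA libraries lay far above all DMSO libraries, in pair 1 as in the others (log2 2.73, 5.08 and 3.54). DLL4 rose from 0.238 ± 0.136 to 3.09 ± 0.55 CPM, with 22 and 274 counts in all, a log2 fold change of 3.69 ± 0.49 (adjusted p = 0.0304). Without DMSO 2, DMSO 3, TPA 2 or TPA 3 it did not pass (adjusted p = 0.234, 0.254, 0.0839 and 0.111), with log2 fold changes of 3.31, 3.77, 3.59 and 3.68. Of all genes, 0, 0, 25 and 2 passed in those fits. Adjusted p over the 16 alternatives ran from 1.18e-10 to 0.254. In TPA its level was 0.650 CPM per kilobase, below every member, of which HEY1 was lowest at 1.21. Endothelial markers, which DLL4 accompanies in vessels, summed to 2.19 to 2.92 CPM in DMSO and 0.977 to 2.25 CPM in TPA. In DMSO and TPA, PECAM1 averaged 1.11 and 0.641 CPM, VWF 1.13 and 1.01 CPM and CDH5 0.266 and 0.151 CPM, with KDR at 0. A link between DLL4 and these markers was not tested.

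In edgeR a further 6 genes passed with the block and not without it, with all 6 libraries. Among 9 genes of Notch cleavage, 0 passed in edgeR without the block (3 at an unadjusted p under 0.05), DESeq2 called FURIN and PSEN2, and FURIN, which encodes the protease that cuts the receptor precursor, rose with it. FURIN had 106, 91.9 and 93.9 CPM in DMSO and 134, 224 and 214 CPM in TPA, with no overlap (blocked log2 0.94 ± 0.27, adjusted p = 0.0465, against 0.0861 without the block). Of 5 genes of sugar transfer to Notch, the fringe genes LFNG and MFNG fell with the block. LFNG had 1.15, 3.38 and 2.60 CPM in DMSO and 0.40, 1.24 and 1.24 CPM in TPA (-1.33 ± 0.34, adjusted p = 0.0333). MFNG had 20.4, 31.4 and 30.5 CPM in DMSO and 8.22, 20.5 and 17.7 CPM in TPA (-0.90 ± 0.25, adjusted p = 0.0415). Fringe enzymes add a sugar to Notch that changes which ligands it answers to, and both of these were lower in every pair.

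Among 12 tested genes of endocytosis and ubiquitin transfer, DTX4, a Deltex family gene, rose with the block (0.95 ± 0.25, adjusted p = 0.0372), from 10.6, 22.0 and 21.4 CPM to 28.2, 37.7 and 34.4 CPM. With the GC correction added DTX4 no longer passed (0.59 ± 0.25, adjusted p = 0.140). Of 21 genes of the nuclear complex, MAML2, a Mastermind coactivator gene, fell with the block (-1.71 ± 0.28, adjusted p = 0.00623). MAML2 had 4.17, 15.7 and 13.1 CPM in DMSO 1, 2 and 3 and 1.95, 3.56 and 3.68 CPM in TPA, with no overlap. RBPJ itself, added here after its values were seen, had 63.9, 55.7 and 47.0 CPM in DMSO and 70.1, 17.7 and 21.6 CPM in TPA, and passed neither without the block (-0.61 ± 0.51, adjusted p = 0.517) nor with it (0.0973). Without both libraries numbered 1 it passed (-1.23 ± 0.12, adjusted p = 1.38e-07), where 65.5% of all genes did. The block with GC correction brought RBPJ from -0.89 to -0.30 ± 0.15 (adjusted p = 0.192). Among 5 tested genes of the other HES and HEY group, HES7 rose with the block (0.99 ± 0.24, adjusted p = 0.0284), from 12.9, 14.1 and 16.3 to 20.8, 34.1 and 32.8 CPM. The HES7 groups did not overlap.

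**Figure D4:**
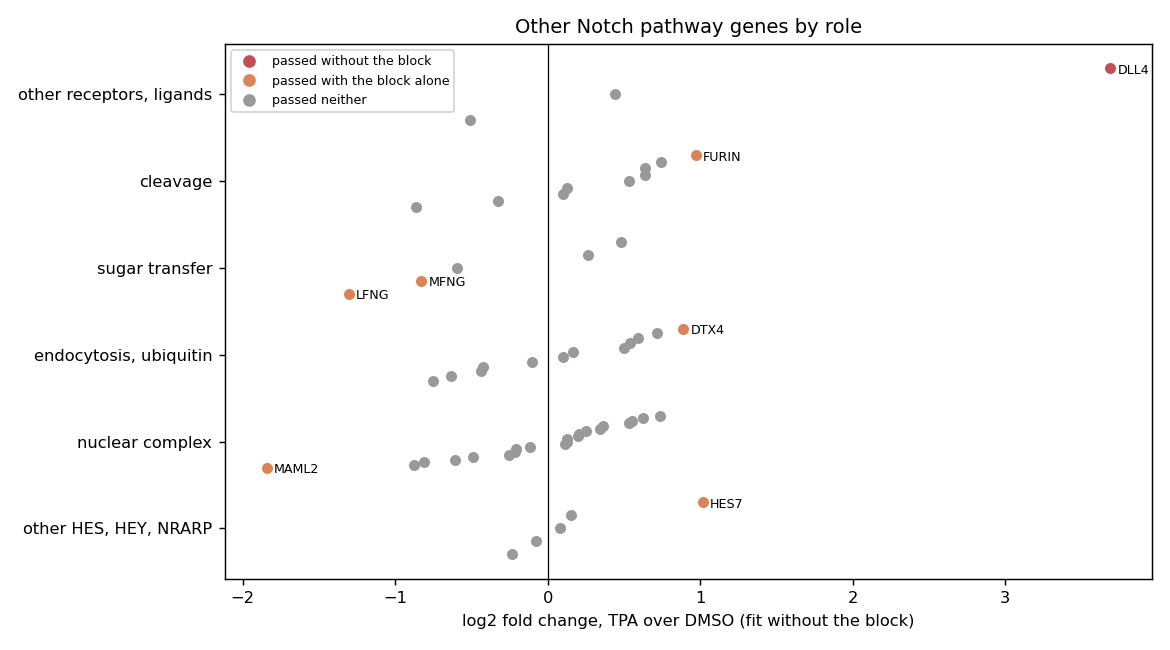
Log2 fold change without the block for the 55 tested genes of the Notch pathway outside the 10 members, in rows by role. Red marks the gene that passed in edgeR without the block, orange those that passed with the block alone, and grey the rest. DLL4 lies apart at 3.69, MAML2 is lowest at -1.84, and the grey points spread to both sides of 0.

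Likeness of pattern was taken as the highest Pearson r of log2 CPM over the 6 libraries, among members and the other tested genes of the pathway. NOTCH3 and JAG2 were each other's closest gene (r = 0.999). HES1 was closest to the Deltex gene DTX2 (0.998), NOTCH1 to the fringe gene RFNG (0.993), JAG1 to LFNG (0.993), and HES2 to BHLHE40 (0.992). DLL1 and HES4 were closest to HES2 (both 0.975), and NOTCH2 and HEY1 to NEURL1 (0.962 and 0.968). All these values come from the same 6 libraries, in which number 1 differs from numbers 2 and 3 for many genes, and they are descriptions.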

How the data were processed

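Illumina libraries were made from TRIzol-extracted total RNA, per the labels' protocols. The authors deposited raw read counts per gene symbol. HISAT2 2.1.0 (aligner) and HTSeq 0.12.4 (counter) are named with builds hg38 and GRCh38, per the submitters' processing notes. Not given in the sources used here are the annotation, the strand setting and the read layout. The table's control columns 1 to 3 were read as DMSO 1 to 3.

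Counts were fitted with edgeR 4.0.16 (R 4.3.3) by the quasi-likelihood F-test, with TMM factors, the filterByExpr filter and no covariate, and p-values were adjusted over 21825 genes. All 10 members passed the filter. The SE was taken as the absolute log2 fold change over the root of F. Intra-library ratios used 0.5 added counts. The replicate numbers were taken as pairs because deviations of same-numbered libraries correlated above 0.1 in each pair (0.546, 0.345 and 0.369). This rests on the data, since no label names a culture shared by a pair. Deviations were taken from the mean of the 3 libraries of a group, so those of numbers 2 and 3 partly mirror number 1. The crossed values were as high (0.374 for DMSO 3 with TPA 2, 0.356 for DMSO 2 with TPA 3), so numbers 2 and 3 are not told apart, and blocked p-values may be too small. The GC correction used each library's robust spline trend (5 degrees of freedom) on GENCODE 29 transcript GC content as an offset, for the 96.3% of tested genes with a value. The edgeR test was tested on simulated counts.

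The alternatives were RLE factors, library size only, no filter, a stricter filter (60 counts in all and 1 CPM throughout either group), DESeq2 1.42.0, limma-voom (limma 3.58.1), the block, the block with GC correction, each library left out, both libraries numbered 1 left out, and, added after seeing the data, GC correction without the block. All 10 members, and other pathway genes that passed with or without the block, are named. The members and lists were chosen with earlier results of these data known. A count of 0 allowed up to 0.0914 to 0.109 CPM (3 counts), which covers counting error only.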

Additional observations from a re-analysis of the deposited data

How the results depend on the processing

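Over 16 alternatives, the direction of NOTCH1, NOTCH2, NOTCH3, JAG1, JAG2, HES1, HES4, HEY1 and DLL4 was the same in each. DLL1 turned to -0.16 with library size only, -0.27 with the replicate block and GC correction, -0.32 with GC correction alone, -0.2 without DMSO 1 and -0.11 without TPA 2, in a range of -0.32 to 0.54. HES2 turned to -0.04 with the replicate block and GC correction and -0.01 with GC correction alone. Of 160 member results, 18 passed where the main comparison did not. All came from the fits without TPA 1, without both libraries numbered 1, with the block, and with the block and GC correction. Those fits called 11874 of 22633 genes, 65.5%, 11.1% and 20.0% of all genes, so the count is no result about the members.

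Members called higher numbered 0, but 6 without both libraries numbered 1 and 0 to 5 with single libraries left out. Members called lower numbered 0, but 1 with the replicate block, 3 with the block and GC correction and 3 without both libraries numbered 1. Other pathway genes called higher numbered 1, but 7 with DESeq2, 4 with the replicate block, 8 with the block and GC correction, 30 without both libraries numbered 1, 2 with GC correction alone, and 0 to 24 with single libraries left out. Those called lower numbered 0, but 1, 3, 10, 16 and 4 under the same settings, and 0 to 11 with single libraries left out.

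All genes called numbered 274, but 631 with no filter, 2617 with DESeq2, 2423 with the replicate block, 4198 with the block and GC correction, 1383 with GC correction alone and 14691 without both libraries numbered 1. With single libraries left out they ran from 0 (without DMSO 2 or DMSO 3, where 2612 and 2745 genes had an unadjusted p under 0.05) to 11874 (without TPA 1). The cause of these shifts was not tested, and fits on 2 libraries of a group assume that they vary like the other group. With single libraries left out, the log2 ratio differences ran from -0.21 to 0.25 for JAG1:JAG2, -0.91 to -0.54 for JAG1:DLL1, -0.31 to 0.3 for NOTCH1:NOTCH2, -2.93 to -0.9 for NOTCH3:NOTCH2 and -0.4 to 0.23 for HES1:HEY1. Low counts limit the precision for DLL4 (22 in DMSO), LFNG (226 in DMSO and 86 in TPA) and HEY1 (228 and 348).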
